A study of Mus musculus with 4 samples.

Results

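LIM homeobox genes and the genes of their cofactors were described in a mouse neural stem cell line and in its Sox11-expressing derivative. The set held 10 genes, Lhx1, Lhx2, Lhx5, Lhx6, Lhx9, Isl1, Lmo1, Lmo2, Lmo4 and Ldb1, out of 18193 genes named on the array, and took in every probe set that the platform annotation gives to one of them alone. These were 16 probe sets, and 0 rows of the table paired a member with another symbol. The members were chosen by their levels and by the difference between the lines in these same arrays, so their values are given as a description and carry no test.

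Expression was measured on 4 Affymetrix mouse arrays, 2 of the line NSCL61 and 2 of NSCL61-sox11. NSCL61 is labelled as p53-/- neural stem cells that resemble glioma-initiating cells, from the brain of C57BL/6 embryos. NSCL61-sox11 has the same strain and p53-/- genotype and is labelled as sox11-expressing, and per the design text it no longer formed tumours in vivo. Both lines trace back, per the protocol, to neuroepithelial cells of the telencephalon at embryonic day 14.5, grown as floating spheres in serum-free medium with forskolin, PDGF and bFGF. The labels name no promoter for Sox11 and do not say whether 2 arrays stand for 2 cultures, so a p-value here speaks to the scatter among 4 arrays and this scatter may be purely technical. NSCL61-sox11 is a single derived line. The comparison asks which genes differ between them. Sox11 lay at 5.09 and 4.82 on the NSCL61 arrays and at 7.74 and 7.97 on the NSCL61-sox11 arrays (log2), and all 4 of its tested probe sets were higher in the line labelled as sox11-expressing.

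LIM homeodomain proteins are transcription factors with a pair of zinc-binding LIM domains ahead of a DNA-binding homeodomain. The LIM domains bind the adaptor LDB1, which dimerises and links DNA-bound factors to one another, and the LIM-only proteins of the LMO family have such domains without a homeodomain and compete for the same adaptor. In the developing forebrain, LIM homeodomain factors help to set regional and neuronal identities, among them cortical, interneuron and motor neuron fates.

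All values below are log2 values of a probe set as deposited. The general test was limma with Benjamini-Hochberg adjustment over the 27022 probe sets with the highest means, the lowest of which was 5.15. Called means an adjusted p under 0.05. Of the 16 member probe sets, 10 passed this level filter, from 8 of the 10 genes; all probe sets of Lhx5 and Lmo2 lay below it. Among these 10, 1 probe set (Lhx2) was called higher in NSCL61-sox11 and 4 (1 of Lhx6, both of Isl1 and that of Lmo1) were called lower. Over all probe sets tested 17.3% were called, 8.99% higher and 8.32% lower. Because the members were picked on this contrast, nothing is read from that count. The median difference over all 16 member probe sets was -0.01, beside -0.02 over all 45037 probe sets that are not controls. For the 10 that passed the filter it was -0.36, beside -0.02 over all probe sets tested, and nothing is read from this either. The arrays of the lines did not overlap for 3 member probe sets that were higher and 6 that were lower in NSCL61-sox11, whereas over all 45037 probe sets that are not controls 23.4% lay apart upwards and 28.7% downwards. Among the 3 was 1441313_x_at of Lhx9, far below the filter at 2.61 and 2.68 against 2.83 and 2.69. Its lines lay only 0.007 apart.

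**Figure D1:**
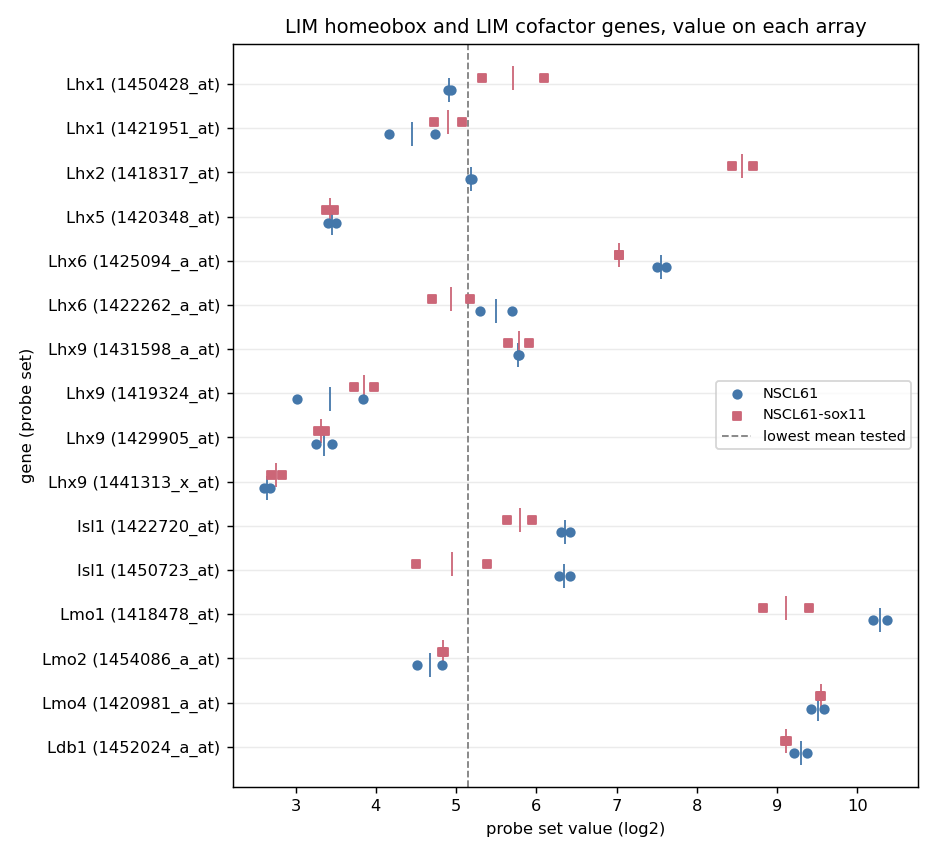
Value on each array (log2) of the 16 probe sets of the LIM homeobox and LIM cofactor genes; circles are NSCL61, squares NSCL61-sox11, ticks the mean of each line, and the dashed line the level filter (5.15). Lhx2 is far apart between the lines, Isl1 and Lmo1 are lower in NSCL61-sox11 with more spread there, and Lmo4, Lhx5 and the brightest Lhx9 probe set overlap.

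Lhx2, a selector gene that gives the embryonic cortex its identity and is needed for eye formation, had by far the widest separation of the members. Its only probe set read 5.20 and 5.17 on the NSCL61 arrays and 8.70 and 8.43 on the NSCL61-sox11 arrays. Both NSCL61-sox11 values lay at least 3.23 above the higher NSCL61 value, while the arrays of a line lay 0.03 and 0.27 apart. The line means were 5.18 ± 0.02 and 8.57 ± 0.19 (SD, n = 2 each), a difference of 3.38 (SE 0.12), and leaving out 1 array gave 3.25 to 3.52. The NSCL61 level was close to the lowest mean tested, so the size of this difference is less certain than its direction.

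Lhx1, which acts in head formation and in Cajal-Retzius and Purkinje cells, was low in both lines. Its brighter probe set (1450428_at) read 4.93 and 4.90 in NSCL61 and 5.32 and 6.10 in NSCL61-sox11. The NSCL61-sox11 arrays were the higher ones but lay 0.78 apart, and the difference of 0.79 (SE 0.23) ranged from 0.41 to 1.18 with 1 array left out. The other probe set (1421951_at), designed on the same transcript record, read 4.73 and 4.16 against 4.73 and 5.07 and overlapped between the lines. Its paralogue Lhx5, a factor of the cortical hem and hypothalamus, read 3.51 and 3.41 in NSCL61 and 3.48 and 3.38 in NSCL61-sox11. All 4 values were far below the level filter and showed no separation.

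Lhx6, which directs the migration and fate of cortical interneurons born in the medial ganglionic eminence, was modestly lower in NSCL61-sox11 on both of its probe sets. The brighter one (1425094_a_at) read 7.50 and 7.61 in NSCL61 and 7.03 on both NSCL61-sox11 arrays, a difference of -0.53 (SE 0.10). The dimmer one (1422262_a_at) read 5.30 and 5.70 against 5.17 and 4.70, a difference of -0.57 (SE 0.19) that ranged from -0.80 to -0.33 with 1 array left out; its NSCL61-sox11 mean of 4.93 lay below the level filter. The lines were separated by 0.47 on the first and by only 0.13 on the second, so the same size of difference rested on a tighter and on a looser pair of arrays. Both folds were small, 1.44-fold and 1.48-fold.

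Lhx9, a close relative of Lhx2 known from the gonad, limb and diencephalon, did not separate as Lhx2 did. Its brightest probe set (1431598_a_at) read 5.79 and 5.77 in NSCL61 and 5.91 and 5.65 in NSCL61-sox11, a difference of 0.00 (SE 0.13). Its other 3 probe sets lay below the filter, with differences from -0.04 to 0.42. Of these, 1419324_at differed most, but its NSCL61 arrays at 3.02 and 3.84 spanned the lower NSCL61-sox11 value of 3.73.

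Isl1, which specifies motor neurons and striatal projection neurons, was lower in NSCL61-sox11 on both probe sets, though by different amounts. On 1450723_at the arrays read 6.28 and 6.42 in NSCL61 and 4.50 and 5.39 in NSCL61-sox11. The difference was -1.40 (SE 0.26), or 2.65-fold, and ranged from -1.85 to -0.96 with 1 array left out. On 1422720_at they read 6.31 and 6.41 against 5.63 and 5.95, a difference of -0.57 (SE 0.14), or 1.49-fold. Both probe sets are annotated to 1 transcript record and gave different sizes of difference in the same direction. On 1450723_at the NSCL61-sox11 mean of 4.95 lay below the level filter, so it passed through its NSCL61 level and the size of its difference is uncertain.

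Of the LIM-only genes, Lmo1 was lower in NSCL61-sox11 and Lmo2 and Lmo4 overlapped. Lmo1, first known as an oncogene of T-cell leukaemia and expressed in the developing brain, read 10.19 and 10.37 in NSCL61 and 8.83 and 9.40 in NSCL61-sox11. The lines lay 0.80 apart at their closest, and the difference was -1.17 (SE 0.17), or 2.25-fold, with a range of -1.46 to -0.89 when 1 array was left out. Lmo4, which acts in cortical neurons and binds the same adaptor, read 9.43 and 9.59 against 9.55 and 9.54, a difference of 0.04 (SE 0.09). Lmo2, which is required for blood formation and blood vessel growth, read 4.83 and 4.51 against 4.86 and 4.82, below the level filter throughout. Endothelial and blood markers were likewise mostly dim: 3 of 8 endothelial markers and 2 of 6 microglial and blood markers had means above the filter, and 0 of these 5 were called with limma (1 at an unadjusted p under 0.05, the endothelial cadherin gene Cdh5, with a difference of -0.59 and adjusted p = 0.0531).

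Ldb1, the shared adaptor, read 9.21 and 9.38 in NSCL61 and 9.12 and 9.10 in NSCL61-sox11. The NSCL61-sox11 arrays were the lower ones by 0.09 at the closest, and the difference of -0.19 (SE 0.09), or 1.14-fold, ranged from -0.27 to -0.10 with 1 array left out.

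**Figure D2:**
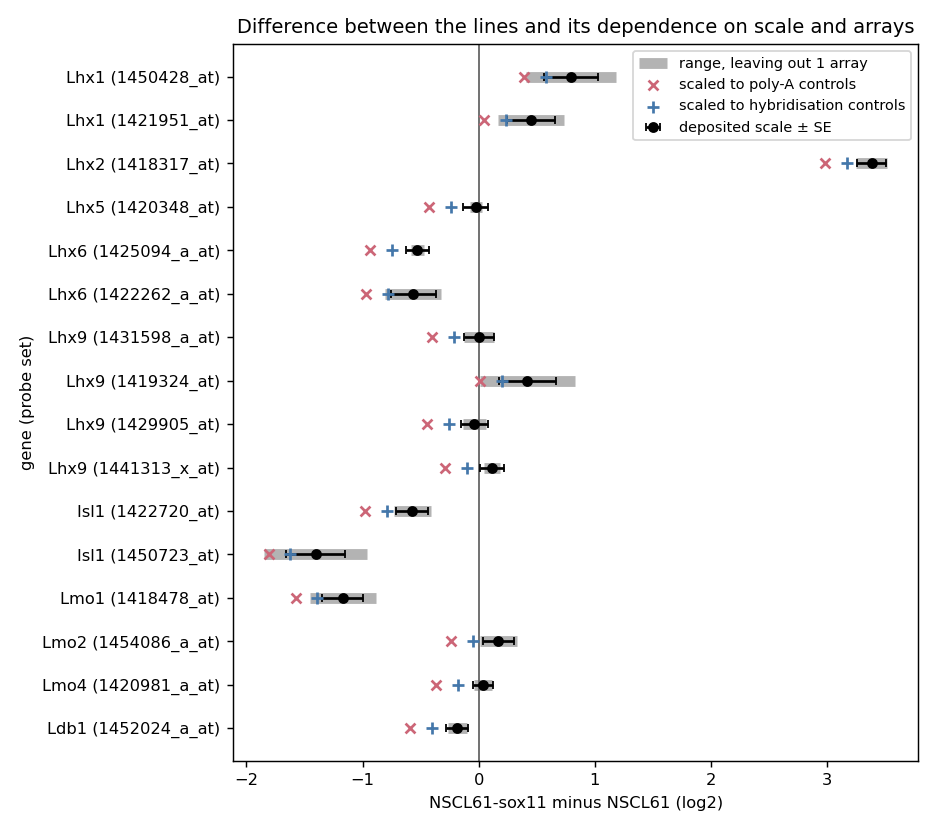
Difference NSCL61-sox11 minus NSCL61 (log2) of each member probe set, as black points with the standard error from the fit of all probe sets; grey bars span the values with 1 array left out, crosses and plus signs the values after scaling to the poly-A and hybridisation controls. Lhx2 stays near 3 under each of these, and Lmo1 and Isl1 stay below 0 with 1 array left out. The small differences of Lmo4, Lmo2 and 2 of the Lhx9 probe sets change sign with the scaling, which shifts all differences downwards. A difference below 0 cannot change sign with it.

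The common scale of the arrays bears on the small differences. The 4678 probe sets called were 2429 higher and 2249 lower as deposited. Scaling the arrays to the poly-A spike-in controls moved the median of all genes from -0.02 to -0.42, and the split to 558 higher and 1995 lower. Scaling to the hybridisation controls gave a median of -0.24 and a split of 1242 and 4656. With poly-A scaling Lhx2 differed by 2.98, Lhx1 by 0.39 on its brighter probe set, Lmo1 by -1.58 and Isl1 by -1.81 and -0.98. Lmo4 moved from 0.04 to -0.37 and Lmo2 from 0.17 to -0.24, so neither has a direction that holds under every scaling. The positive differences of Lhx2 and of both Lhx1 probe sets kept their sign under both scalings, quantile normalization and median centring. That of Lhx1 on 1421951_at was only 0.05 with poly-A scaling. The differences of Lhx6, Isl1, Lmo1 and Ldb1 stayed negative. Each control scaling shifts all differences downwards by the same amount, so a negative difference could not change sign and nothing is read from this.

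The sequences upstream of the genes that stood furthest apart, Lhx2 upwards and Isl1 and Lmo1 downwards, are shown as the reference sequence next to their starts, since Sox11 is the factor by which the lines are labelled and LIM homeodomain proteins bind DNA themselves. They are the 250 bases before an annotated start (RefSeq, GRCm38.p6), written 5′ to 3′ along the gene. Capitals mark letters searched on both strands. For Sox factors these were ACAAAG and a pair of shifted forms that can overlap each other. The first of these forms was ACAATG. The form shifted by a base was AACAAT. For LIM homeodomain proteins the letters searched were TAATTA. The windows are chr2:38339031-38339280 (plus strand), chr13:116309689-116309938 (minus strand) and chr7:109175208-109175457 (minus strand).
Lhx2: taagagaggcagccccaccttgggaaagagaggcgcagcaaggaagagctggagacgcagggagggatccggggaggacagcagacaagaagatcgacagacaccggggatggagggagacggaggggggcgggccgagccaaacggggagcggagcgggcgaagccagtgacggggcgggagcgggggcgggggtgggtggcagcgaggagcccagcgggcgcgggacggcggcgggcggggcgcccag
Isl1: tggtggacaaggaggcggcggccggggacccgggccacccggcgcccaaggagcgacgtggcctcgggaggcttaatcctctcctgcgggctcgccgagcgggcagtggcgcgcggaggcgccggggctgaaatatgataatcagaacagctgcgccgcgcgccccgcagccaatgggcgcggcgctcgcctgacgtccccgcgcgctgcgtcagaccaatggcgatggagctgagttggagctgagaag
Lmo1: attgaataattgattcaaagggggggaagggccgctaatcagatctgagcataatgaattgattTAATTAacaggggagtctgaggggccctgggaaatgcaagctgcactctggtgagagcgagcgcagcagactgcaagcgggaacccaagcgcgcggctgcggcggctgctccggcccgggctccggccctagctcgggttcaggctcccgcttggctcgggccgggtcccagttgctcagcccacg

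The Lhx2 and Isl1 windows held none of these letters, and that of Lmo1 held TAATTA once, beginning 186 bases before the start. In Lhx6 the 30 bases before its most downstream listed start (chr2:36104061-36104090, minus strand) held ACAAAG beginning 27 bases before it, and the shifted pair, overlapping each other, at 13 and 12 bases.
Lhx6: actACAAAGttaggactCATTGTTcagcgc

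Promoter windows were listed for 8 of the 10 members, 16 windows in all, and those of 1 gene can overlap. Any of the Sox letters occurred in 2 of these windows, of Lhx6 and Lhx9, compared with 29.6% of all 32851 windows, and TAATTA in 2, both of Lmo1 and both holding the same match, compared with 4.84% of all windows. The GC content of the windows shown was 72.8% for Lhx2, 71.2% for Isl1 and 61.2% for Lmo1, and the median of all windows was 52.4%. A match of letters is a description and not a binding site.

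Among other genes of the LIM-only and LDB group and its partners, 3 of 12 tested rose, 0 fell and 9 did not pass. Over all genes tested, each taken by its brightest probe set, 10.0% were called higher and 9.19% lower. Ssbp2, a single-stranded DNA-binding protein that stabilises LDB1, read 7.78 and 7.81 in NSCL61 and 9.36 and 9.38 in NSCL61-sox11. It rose 2.99-fold, a log2 difference of 1.58 (SE 0.09, limma adjusted p = 0.000191), and was called in 14 of 14 alternatives. Its paralogue Ssbp3 read 8.54 and 8.81 against 9.11 and 9.32 and rose 1.45-fold (limma adjusted p = 0.0341). This call was made on 1 of 2 tested probe sets and in 7 of 14 alternatives, and was lost when either NSCL61 array, or the second array of NSCL61-sox11, was left out. The third paralogue, Ssbp4, differed by 0.27 and did not pass (limma adjusted p = 0.207). The zinc finger factor gene Gata3, of a family whose members join LMO2 complexes, rose 2.15-fold, from 5.76 and 5.63 to 6.77 and 6.82 (limma adjusted p = 0.0014), and was not called with poly-A scaling (difference 0.70).

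**Figure D3:**
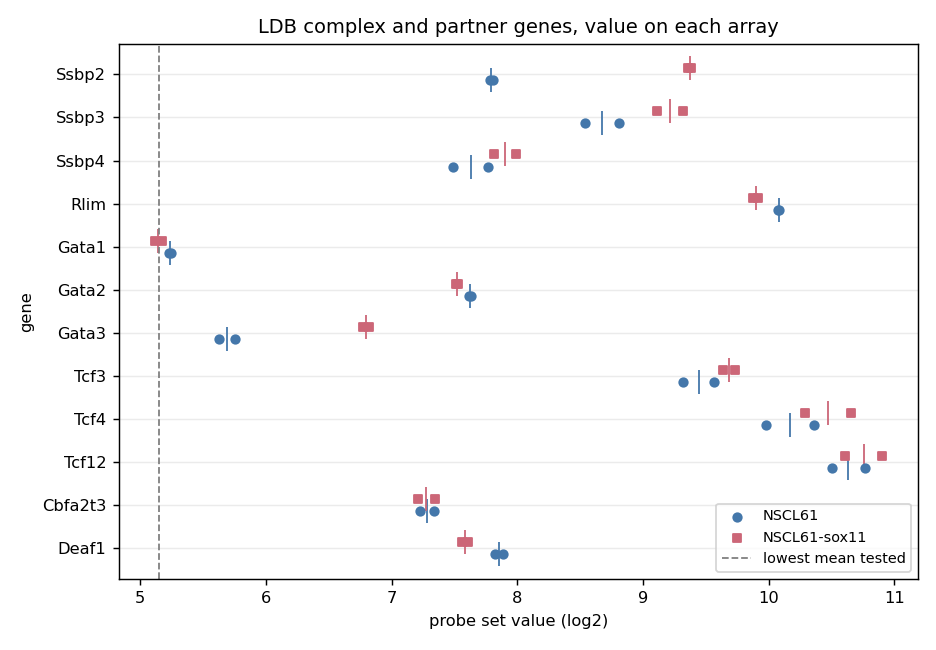
Value on each array (log2) of the 12 tested genes of the LIM-only and LDB group and its partners; circles are NSCL61, squares NSCL61-sox11, ticks the mean of each line, and the dashed line the level filter. Ssbp2 and Gata3 are set apart with tight pairs, and the arrays of the lines overlap for Tcf4, Tcf12 and Cbfa2t3.

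Other members of this group differed little. The E protein genes Tcf3, Tcf4 and Tcf12, partners of basic helix-loop-helix factors in LMO complexes, differed by 0.24, 0.31 and 0.12. Rlim, whose product marks LDB1 for degradation, differed by -0.18 (limma adjusted p = 0.149), and Deaf1, which encodes a binding partner of LMO4, by -0.27 (limma adjusted p = 0.0949). These 2 were lower at an unadjusted p under 0.05. Deaf1 was called lower in 2 of 14 alternatives, and Tcf3, Tcf4 and Ssbp4 were each called higher in 1 of 14. The second adaptor gene Ldb2, the LIM-only gene Lmo3 and the LMO2 partners Tal1 and Lyl1 lay below the level filter, with means between the lines that differed by 0.12, -0.04, 0.01 and 0.11. The list median was 0.18, beside -0.02 over all genes. With poly-A scaling 1 gene of the list was higher and 0 lower, and with hybridisation control scaling 2 and 1. Averaging probe sets gave 2 and 0, as did leaving out _x_at and _s_at probe sets.

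None of the LIM homeobox genes outside the set passed the test. Of 6, Lhx3, Lhx4, Lhx8, Isl2 and Lmx1b were tested and Lmx1a lay below the filter. With limma 0 of 5 were called, 0 had an unadjusted p under 0.05, and 0 were called in any alternative. Their differences ran from -0.03 to 0.06. Apart from Lhx8 they were dim, with means in NSCL61 and NSCL61-sox11 of 5.25 and 5.27 for Lhx3 and 5.66 and 5.66 for Lmx1b. Those of Lhx4 were 5.86 and 5.91 and those of Isl2 6.42 and 6.48. With the lowest mean tested at 5.15, little can be read from small differences at such levels. Lhx8, a partner of Lhx6 in the ventral forebrain, was the brightest of them, at 8.86 and 8.92 in NSCL61 and 8.62 and 9.10 in NSCL61-sox11, so that its NSCL61-sox11 arrays enclosed both NSCL61 values.

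Genes of other LIM domain proteins, most of them parts of the actin cytoskeleton and of adhesions, moved in both directions. Of 27 tested, 6 rose, 4 fell and 17 did not pass, with a median of 0.05. Ablim1, an actin-binding LIM protein, rose 7.32-fold, from 5.92 and 5.76 to 8.52 and 8.90 (difference 2.87, SE 0.15, limma adjusted p = 0.000156), and both of its probe sets were called. Lims1, an adaptor of integrin adhesions also called PINCH, rose 1.82-fold, from 9.61 and 9.44 to 10.35 and 10.43 (limma adjusted p = 0.00214). Trip6, a zyxin relative, rose 1.56-fold, and both this call and that of Lims1 were lost with poly-A scaling, that of Trip6 also with hybridisation control scaling. Tes, encoding the focal adhesion protein testin, fell from 11.98 and 12.06 to 11.12 and 11.18, or 1.83-fold (limma adjusted p = 0.000614). Pdlim1, which links LIM and PDZ domains to actinin, fell from 11.70 and 11.62 to 10.87 and 10.78, or 1.78-fold, but only 1 of its 2 tested probe sets was called. Pdlim5 fell 1.36-fold on its brightest probe set, and 6 of its 7 tested probe sets were called lower. The split of this list depended on the scale, with 1 gene higher and 4 lower after poly-A scaling and 2 and 7 after hybridisation control scaling. Without NSCL61 array 1 it was 4 higher and 2 lower.

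Among cortical selector and hem genes, which act beside Lhx2 in the embryonic telencephalon, 5 of 14 tested rose, 1 fell and 8 did not pass, with a median of 0.02. Dmrta2, which restrains neuronal differentiation in cortical progenitors, read 6.96 and 6.95 in NSCL61 and 9.66 and 9.67 in NSCL61-sox11. It rose 6.56-fold (difference 2.71, SE 0.09, limma adjusted p = 7.56e-05) and was called in 14 of 14 alternatives. Emx2, a homeobox gene of the medial cortex, rose 1.58-fold, from 7.58 and 7.84 to 8.30 and 8.45 (limma adjusted p = 0.0152), and was not called without NSCL61 array 1 or with either control scaling. The nuclear receptor genes Nr2f2 and Nr2f1 rose 1.45-fold and 1.34-fold, Nr2f2 with 3 of 6 tested probe sets called. Pax6 fell 1.36-fold (limma adjusted p = 0.0402) with 2 of 4 tested probe sets called. These smaller changes rested on few arrays: the list had 1 call without NSCL61 array 1, which was Dmrta2, and 2 without NSCL61 array 2. With poly-A scaling there was 1 higher and 0 lower, and with hybridisation control scaling 1 and 1. Wnt3a and Wnt2b, signals of the cortical hem that Lhx2 holds back in the embryo, differed by -0.09 and 0.01. Both were dim in NSCL61 and NSCL61-sox11, Wnt3a with means of 5.97 and 5.88 and Wnt2b with 5.22 and 5.23. The lowest mean tested was 5.15, so little can be read from these small differences. Wnt5a of the same list was brighter, with means of 8.73 and 8.76. It differed by 0.04 (limma adjusted p = 0.855), and 0 of its 3 tested probe sets were called. Wnt8b lay below the filter.

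Of the ventral forebrain and interneuron genes beside Lhx6, 2 of 7 tested rose and 5 did not pass, and 9 more lay below the filter, among them Nkx2-1, the regulator that acts above Lhx6, and the GABA synthesis genes Gad1 and Gad2. Maf, a transcription factor gene of interneurons and of many other cells, rose 7.49-fold, from 5.85 and 6.39 to 8.64 and 9.41 (limma adjusted p = 0.00153), with 2 of 3 tested probe sets called. Averaged over its probe sets, the log2 difference of Maf was 1.37 in place of 2.91. The chemokine receptor gene Ackr3 rose 1.99-fold (limma adjusted p = 0.044), but its NSCL61-sox11 arrays at 7.57 and 8.37 were uneven and it was called in 7 of 13 alternatives. The call was lost without either NSCL61 array, with quantile normalization, with poly-A scaling (difference 0.59), without the intensity trend and in the analysis that averages probe sets. Dlx1 and Dlx2 differed by 0.14 and -0.10 and did not pass. Of the genes of Cajal-Retzius cells, motor neurons and other neurons in which Lhx1, Lhx5, Lhx9 or Isl1 act, 5 of 14 passed the filter and 1 of these rose. This was Ebf3, a factor of Cajal-Retzius cells among others, at 5.84 and 5.99 in NSCL61 and 8.24 and 8.27 in NSCL61-sox11 (5.06-fold, limma adjusted p = 0.000104). The other 4 tested genes, Calb2, Trp73, Slc18a3 and Tfap2a, differed by -0.24, -0.01, 0.03 and 0.48 and did not pass. Reln, the defining product of Cajal-Retzius cells, and the motor neuron genes Mnx1 and Chat lay below the filter in both lines. So did Ebf2, at 4.01 and 4.14 in NSCL61 and 3.64 and 3.62 in NSCL61-sox11. Without the level filter the list had 1 gene called higher and 1 lower.

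**Figure D4:**
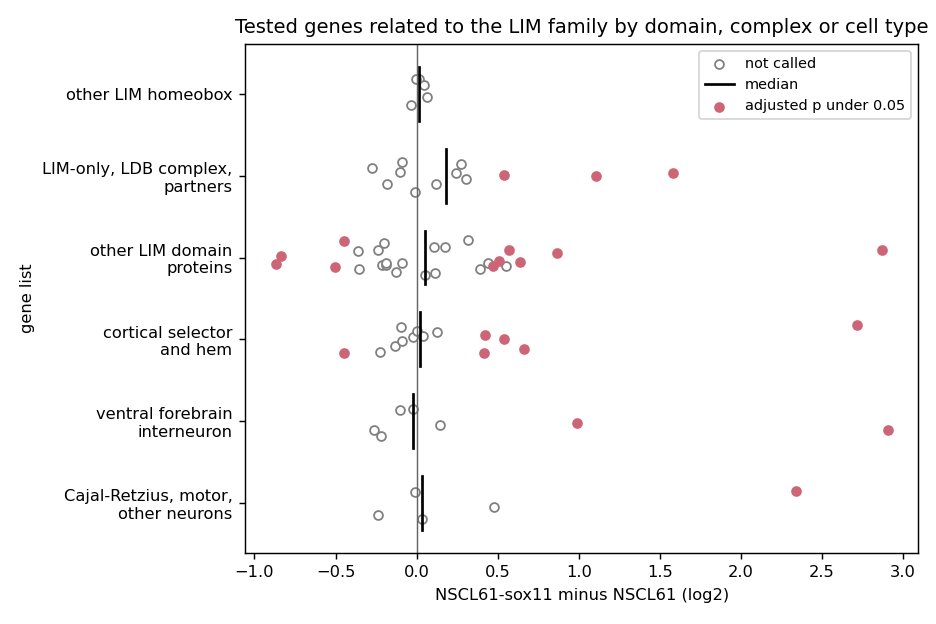
Difference NSCL61-sox11 minus NSCL61 (log2) of every tested gene in 6 lists related to the LIM family; filled points passed an adjusted p under 0.05 in limma, open points did not, and black lines are list medians. The 5 other LIM homeobox genes, most of them dim in both lines, lie near 0, while single genes of the other lists (Ablim1, Dmrta2, Maf, Ebf3, Ssbp2) lie far to the right.

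The labelled cell type was checked on 10 neural stem cell markers, of which 8 had means above the filter; Fabp7 and Prom1 lay below it in both lines. Of these 8, Slc1a3 rose, Sox2, Vim and Pax6 fell and 4 did not pass. The sizes were unlike: Slc1a3 rose 2.28-fold and Sox2 fell 3.24-fold. Pax6 fell 1.36-fold with 2 of 4 tested probe sets called, and Vim 1.16-fold with 1 of 3. Markers of fibroblasts and meninges moved with the line: 6 of 7 tested rose and 0 fell, and their median level was 5.95 to 6.51 on the NSCL61 arrays and 8.38 to 8.99 on the NSCL61-sox11 arrays, with Lum below the filter and Dcn not called. Of 5 tested neuron markers Tubb3 and Syt1 rose and Nefl, a neurofilament gene, fell from 11.01 and 11.79 to 4.32 and 4.91 (limma adjusted p = 0.000104), and Dcx, Map2 and Snap25 lay below the filter. Their part in the differences of the LIM genes and of the lists was not tested, and in bulk RNA a change in the share of cells and a change in RNA per cell cannot be told apart.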

How the data were processed

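The deposited table holds the authors' processed log2 value of each of 45101 probe sets on 4 arrays; the log base is inferred from the range (2.13 to 14.62), and the summarisation and normalization are not given in the sources used here. Values were used as deposited. Probe sets were named by GEO's platform annotation, checked by gene identifier against the RefSeq gene table of GRCm38.p6 (0 symbols updated): 34945 had 1 symbol, 932 several and 9160 none. The 64 control probe sets were left out of tests.

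Differences between the lines were tested, two-sided, by limma 3.58.1 under R 4.3.3 (functions lmFit and eBayes, with a variance trend over intensity). The brightest 60% of probe sets entered. Benjamini-Hochberg adjustment ran over all 27022, with 2 residual degrees of freedom (6.36 after moderation). Errors of member differences come from a fit of all 45037 probe sets. A gene was taken by its brightest tested probe set. The fit was tested on simulated data. The number of arrays limits precision: an exact permutation test of 2 against 2 cannot go below p = 0.333.

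The members and lists were chosen with earlier results of these data known. Named were all members, Sox11, all genes of lists of up to 12 tested genes, and otherwise up to 5 called genes with the largest difference; not all are described, and genes named below the filter or with small differences were added after their values were seen. Promoter letters were searched in RefSeq sequence with Python 3.11.15. Alternatives covered filter, scale, variance trend, probe sets, replicate block and leaving out each array.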

Additional observations from a re-analysis of the deposited data

How the results depend on the processing

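Of the recomputed member differences 122 moved by less than the spread between arrays and 25 by more, and none of a called probe set changed sign. This tally is no measure of stability. Leaving out 1 array cannot move a difference by more than this spread, and leaving out _x_at and _s_at probe sets cannot move the others. Neither control scaling can turn a negative difference positive. Every move beyond the spread came with a control scaling or, for Isl1, with averaging its probe sets. The count of called member probe sets, 5, became 3 with the brightest 40% of probe sets, when neither Isl1 probe set was among those tested, and ranged from 1 to 6 with 1 array left out. Without NSCL61 array 1 Lhx2 and Lmo1 were called, without NSCL61 array 2 Lhx2 alone, and without NSCL61-sox11 array 1 or 2 there were 6 and 5 calls. The 4678 probe sets called became 2553 with poly-A control scaling and 1639 to 4947 with 1 array left out. The 22 genes called over the 6 related lists (17 higher, 5 lower) became 9 with poly-A control scaling (5 and 4) and 11 to 24 with 1 array left out; with hybridisation control scaling 8 were higher and 9 lower. With the replicate number as a block, the counts were 9227 probe sets, 35 list genes and 7 member probe sets. Nothing in the labels pairs the arrays by number; the deviations of same-numbered arrays correlated at 0.415 across probe sets, and 2 pairs are too few to settle a pairing. A gene read close to the lowest mean tested, such as Lhx2 in NSCL61, has an uncertain size of difference.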

Other observations

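Genes next to the members were also read, as the nearest protein-coding gene with a named probe set on each side in the RefSeq gene table of GRCm38.p6. Of 20 such neighbours 17 were tested, and with limma 1 rose and 3 fell. Over all genes tested 10.0% were called higher and 9.19% lower, so nothing is read from this count. The neighbours were not run in the alternatives. Dennd1a, next to Lhx2, rose 1.47-fold, from 7.31 and 7.41 to 8.02 and 7.82 (limma adjusted p = 0.0186), while Nek6 on the other side differed by 0.17 (limma adjusted p = 0.256). Aatf and Mrm1, on either side of Lhx1, both fell, by 0.52 and 0.57 on the log2 scale. Lhx1 itself was higher by mean in NSCL61-sox11 but was not called. Its brighter probe set had an NSCL61 mean of 4.92, below the level filter, and uneven NSCL61-sox11 arrays. Its other probe set overlapped between the lines. Nek7, next to Lhx9, fell 1.32-fold. The neighbours of Isl1, Itga1 and Parp8, differed by -0.73 and -0.45 and did not pass, as their arrays were uneven within both lines. Both neighbours of Lmo1, Ric3 and Stk33, lay below the level filter.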
